A study of Mus musculus with 8 samples.

Results

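The cytosolic ribosomal protein genes of mouse encode the proteins of the large and small subunits of the ribosome outside mitochondria. They were chosen by name from the protein-coding rows of the count table: Rpsa, Rplp0, Rplp1, Rplp2, Fau, and symbols made of Rpl or Rps and a number with at most 1 further letter a, x, y or l. This gave 81 of 54532 genes, 49 named for the large and 32 for the small subunit (Fau included). Of these, 78 passed the filter on low counts, out of 17004 genes that did. The name rule leaves out some genes that code for ribosomal proteins or close relatives, such as Rps3a1, Rpl36al, Rpl22l1, Rpl7l1 and Rps27rt, and the ribosome-bound scaffold Rack1. Those described here are named as genes outside the set.

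The libraries were made from mouse retina by poly(A)-selected RNA sequencing, with 4 retina samples labelled sIVs (small intracellular vesicles, per the title of the series) and 4 labelled PBS, the buffer control. Replicates were numbered 1, 3, 4 and 5 in both groups. The labels give no strain, genotype, age, dose, route or time for either group. They number the samples of a group as biosamples without saying that each came from its own animal, so the p-values measure the spread between these samples, which may be technical.

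Ribosomal proteins are made in near-equal amounts, because a ribosome holds a single copy of most of them, and retinal neurons use them to renew synaptic proteins and, in photoreceptors, the outer segment discs. Their mRNAs begin with a terminal oligopyrimidine tract, a C followed by a run of C and T bases, through which mTORC1 and the protein Larp1 set their translation. Mammalian genomes also carry many processed pseudogenes of these genes, which are intronless copies of their mRNAs, and reads from a copy and its source can be hard to tell apart.

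The whole series can be put briefly. Totals were 13803958 to 16622259 counts per library, and the common biological coefficient of variation was 0.254. Summed rod markers were 33984 to 56304 CPM (counts scaled to the size of the library, with TMM factors) in sIVs retinas and 29106 to 55207 CPM in PBS retinas, so all 8 libraries carried the labelled tissue's main cell type. Lens markers summed to at most 0.851 CPM. Replicate 4 of sIVs stood apart: markers of the pigment epithelium, the pigmented layer behind the retina, summed to 457 CPM there, against 13.0 to 74.0 CPM in the other 3 sIVs libraries and 12.0 to 67.9 CPM in PBS libraries. All 10 of those markers had counts, and 6 of the 8 that passed the count filter were highest in that library. Ganglion cell markers summed to 843 CPM in that library and to at most 610 CPM in the other 7. Cone markers were highest there too, at 1054 CPM against at most 857 CPM. Bipolar cell markers (1246 CPM) and amacrine and horizontal cell markers (681 CPM) were lowest there, against at least 1448 and 740 CPM elsewhere. Single markers did not all follow these sums. Those highest in that library were 4 of 6 for ganglion cells and 4 of 6 for cones. For bipolar cells they were 2 of 6, and for amacrine and horizontal cells 1 of 7. Erythrocyte markers, low throughout, summed to 9.37 to 26.7 CPM in sIVs libraries, highest in replicate 4. In PBS libraries they summed to 5.24 to 9.14 CPM, so the sums narrowly did not overlap. Of the 4 that passed the count filter, 3 had a positive log2 fold change of sIVs over PBS and 1 a negative one (-0.73). Microglia markers summed to 28.8 CPM in PBS replicate 1, against 89.8 to 123 CPM in the other 3 PBS libraries and 85.6 to 160 CPM in sIVs libraries. Because sIVs replicate 4 stood apart, results are given with and without it.

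No ribosomal protein gene differed between sIVs and PBS retinas past the test. By the quasi-likelihood test of edgeR, 0 of the 78 reached an adjusted p of 0.05, as did 0.0% of all tested genes, and the lowest adjusted p of any member was 0.81. Before adjustment 0 members fell under 0.05 in edgeR, beside 1.5% of all tested genes. DESeq2 gave 4 such members, beside 1.89% of all genes, and limma-voom with sample quality weights gave 1, beside 2.68%. The groups overlapped for all 78 members, while sIVs lay wholly above PBS for 1.08% and wholly below for 0.929% of all tested genes.

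The fitted differences nevertheless leaned one way. The log2 fold change of sIVs over PBS was positive for 77 of 78 members, with a median of 0.43 and a range of -0.16 to 1.08. Over all tested genes the median was 0.01, and 51.3% were positive. Other short coding genes leaned the same way. Those with a listed length under 1000 nt had a median of 0.43 (85.1% positive), and those of 1000 to 2000 nt 0.30 (84.5% positive). The median standard error of a member was 0.30. Without sIVs replicate 4 the median was 0.04, with 56 members positive and 22 negative and a range of -0.64 to 0.35. With quality weights, which give a deviating library less weight, the median was -0.04 and 24 of 78 were positive.

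**Figure D1:**
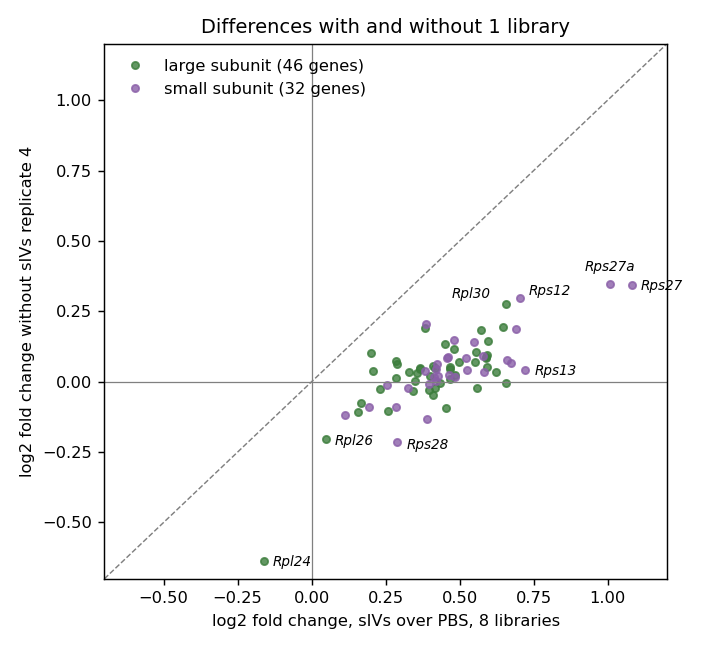
Log2 fold change of sIVs over PBS for each of the 78 tested ribosomal protein genes, fitted with 8 libraries (x axis) and without sIVs replicate 4 (y axis), coloured by subunit. The dashed line marks equal values. The points lie right of 0 except Rpl24 and fall to a band around 0 on the y axis, where the median is 0.04.

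The same library was high in nearly every member. Expression, as CPM, was highest in sIVs replicate 4 for 76 of 78 members. The exceptions were Rpl26, highest in PBS replicate 5, and Rpl7a, highest in sIVs replicate 5. Taken as log2 CPM minus each gene's mean over the 8 libraries, the family median was -0.18, -0.33, 1.09 and 0.16 in sIVs replicates 1, 3, 4 and 5, and -0.38, -0.12, -0.13 and -0.04 in PBS replicates 1, 3, 4 and 5. Apart from replicate 4 the 2 groups interleaved. PBS replicate 1 was lowest for 38 members and sIVs replicate 3 for 31, while sIVs replicate 5 ranked first or second for 61. The other libraries also mattered: leaving out sIVs replicate 3 gave 26 members with an unadjusted edgeR p under 0.05, beside 5.53% of all genes, and leaving out sIVs replicate 1 gave 8, beside 4.4%. Both fits had 0 adjusted calls.

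**Figure D2:**
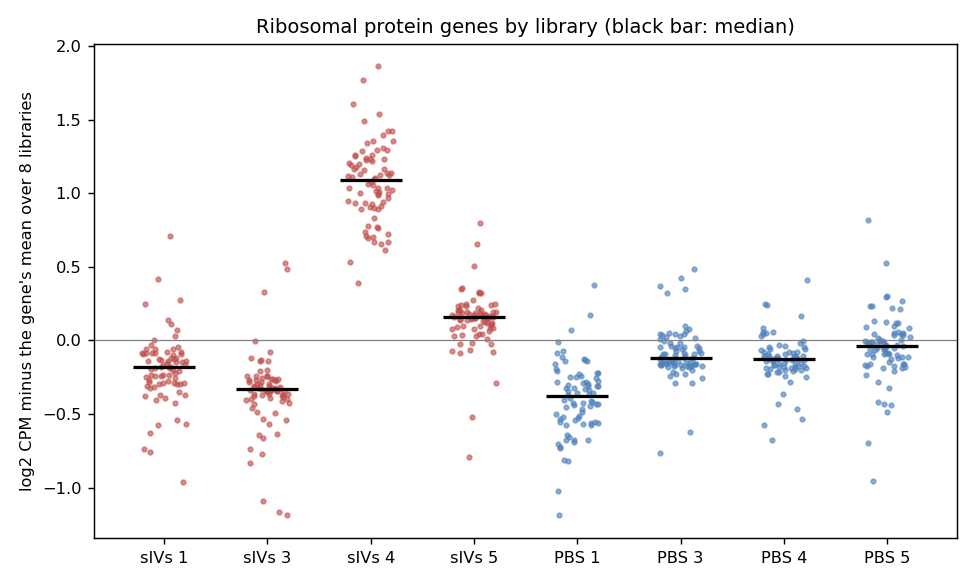
Log2 CPM minus the gene's own mean over the 8 libraries, 1 point per tested ribosomal protein gene, sIVs libraries in red and PBS libraries in blue, with the median as a black bar. The median of sIVs replicate 4 is 1.09, and those of the other 7 libraries lie between -0.38 and 0.16.

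As a share of all counts, the 81 genes took 0.893%, 0.849%, 2.17% and 1.22% in sIVs replicates 1, 3, 4 and 5, and 0.783%, 1.02%, 0.977% and 1.06% in PBS replicates 1, 3, 4 and 5. The means were 1.28% ± 0.613 in sIVs and 0.960% ± 0.123 in PBS retinas (SD, n = 4 each), a difference smaller than the spread in sIVs. Without replicate 4 the sIVs mean was 0.989% ± 0.205 (SD, n = 3). In bulk tissue, fewer cells of a type and less RNA per cell cannot be told apart.

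Both subunits showed this pattern. The median log2 fold change was 0.42 for large subunit genes (45 of 46 positive) and 0.46 for small subunit genes (32 of 32 positive), and without sIVs replicate 4 both medians were 0.04. In sIVs replicate 4 the median deviation was 1.06 for large and 1.10 for small subunit genes. The ratio of large to small subunit counts was 1.33 in sIVs replicate 4, against 1.43 to 1.46 in the other 3 sIVs libraries and 1.44 to 1.49 in PBS libraries.

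Among the P-stalk genes, whose products form the flexible arm that recruits elongation factors, Rplp1 had the highest level of the whole family. Rplp1 (ENSMUSG00000007892, mm10 chr9:61913284-61914542, minus strand) had 580, 607, 1914 and 868 FPKM in sIVs replicates 1, 3, 4 and 5 and 469, 726, 673 and 785 FPKM in PBS replicates 1, 3, 4 and 5. FPKM are the deposited values, scaled by listed gene length and a library size that is not exactly the library total. They were 0.943 (sIVs replicate 5) to 1.03 (PBS replicate 1) times the counts per listed length and library total. The groups overlapped, since 2 sIVs libraries lay below 3 of the PBS libraries, and the log2 fold change was 0.59 (SE 0.37) with an edgeR adjusted p of 0.81. Its partner Rplp2 had 90.4, 87.1, 272 and 130 CPM in sIVs and 75.4, 99.5, 99.98 and 111 CPM in PBS retinas, in the same order of replicates. Rplp0, which anchors both to the ribosome, had 86.1, 107, 279 and 160 CPM in sIVs and 72.5, 133, 117 and 157 CPM in PBS retinas. Replicate 4 was the highest sIVs library and replicate 1 the lowest PBS library for all 3 stalk genes. Their log2 fold changes without sIVs replicate 4 were 0.05 (Rplp1), 0.09 (Rplp2) and -0.03 (Rplp0).

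After Rplp1, the highest mean levels over the 8 libraries were those of Rps15 (345 FPKM), Rpl36 (246 FPKM), Fau (240 FPKM), Rpl4 (228 FPKM) and Rpl8 (224 FPKM), followed by Rpl19, Rpl41, Rps23 and Rps4x between 177 and 150.3 FPKM. Rpl4 reaches into the tunnel through which the new protein leaves, Rpl8 lies near the peptidyl transferase centre, and Rps23 lies at the decoding centre. Rps4x is encoded on the X chromosome, and Rpl41 is a very short protein at the interface of the subunits. Of the 78, 49 lay between 50 and 300 FPKM, and the family median was 72.9 FPKM (67.0 for large and 75.0 for small subunit genes). The scale matters for this order. The table's listed lengths, with a median of 1754.5 nt over members, exceed those of the annotated transcripts used here, with a median of 680.5 nt. On CPM per kilobase of transcript only 5 of the highest 10 were the same, although Rplp1 led on both scales and the 2 orders had a Spearman correlation of 0.77 across the 78 genes, which share the same libraries and counts.

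**Figure D3:**
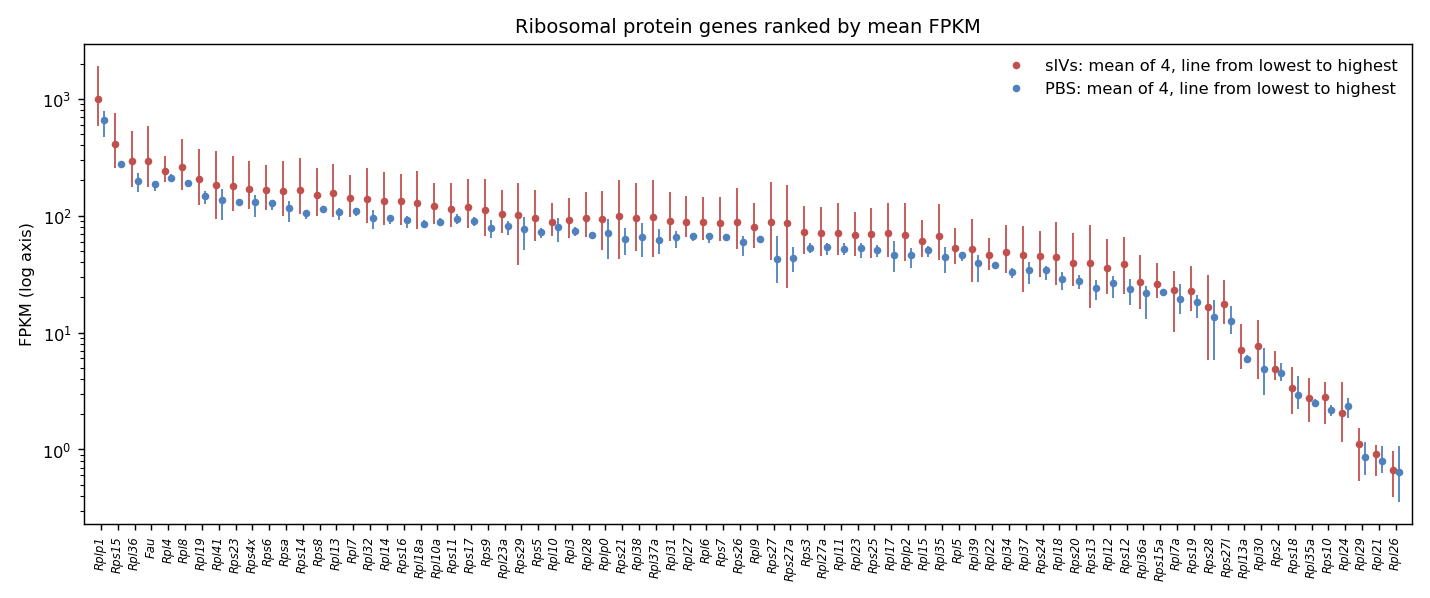
Deposited FPKM of the 78 tested ribosomal protein genes on a log axis, ranked by the mean over 8 libraries. For each gene the sIVs group (red) stands left of the PBS group (blue), points are means of 4 and lines run from the lowest to the highest library. Levels run from a mean of 828 FPKM for Rplp1 to 0.653 FPKM for Rpl26, and the lines of the groups overlap for every gene.

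Rpl4 and Rps15 showed how unequally replicate 4 stood out. Rpl4 had 442, 401, 665 and 490 CPM in sIVs and 398, 426, 440 and 466 CPM in PBS replicates 1, 3, 4 and 5. Rps15 had 195, 163, 493 and 213 CPM in sIVs and 167, 183, 179 and 184 CPM in PBS retinas. Both were highest in sIVs replicate 4, and the other 7 libraries lay between 398 and 490 CPM for Rpl4 and between 163 and 213 CPM for Rps15.

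Fau and Rps27a encode fusion precursors: Fau yields a ubiquitin-like protein and a small subunit protein, and Rps27a yields ubiquitin and a small subunit protein. Fau had 150, 145, 487 and 196 CPM in sIVs and 135, 164, 159 and 162 CPM in PBS retinas, a log2 fold change of 0.66 (SE 0.36) that was 0.08 without sIVs replicate 4. Rps27a had 116, 47.9, 368 and 169 CPM in sIVs and 107, 108, 67.4 and 66.3 CPM in PBS retinas. As in many members, sIVs replicate 4 was highest and sIVs replicate 3 low, but PBS replicates 4 and 5 lay below PBS replicate 1, the PBS library with the lowest family median. Its log2 fold change was 1.01 (SE 0.51), and 0.35 without sIVs replicate 4.

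The smallest p of the family belonged to Rps27, a zinc-finger protein of the small subunit (mm10 chr3:90212522-90213651, minus strand). It had 44.9, 54.1, 208 and 72.0 CPM in sIVs and 28.2, 71.4, 38.5 and 40.8 CPM in PBS retinas. The log2 fold change was 1.08 (SE 0.49), the unadjusted p was 0.0551 and the edgeR adjusted p was 0.81. It was 0.34 without sIVs replicate 4 and 0.22 with quality weights. PBS replicate 3 lay above sIVs replicates 1 and 3, so the groups overlapped. The next smallest unadjusted p belonged to Rps14, Rps12, Rpl34, Rps27a and Rpl10a, with log2 fold changes of 0.69, 0.70, 0.57, 1.01 and 0.45 in edgeR and, without sIVs replicate 4, 0.19, 0.30, 0.18, 0.35 and 0.14. Rps13, a small subunit protein with the third highest fold change, had 0.72 (SE 0.45) and 0.04 without that library.

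Rpl24, a large subunit protein at the interface with the small subunit, was the only member with a negative log2 fold change, -0.16 (SE 0.40). It had 1.29, 1.21, 3.99 and 2.20 CPM in sIVs and 2.80, 2.89, 2.15 and 1.93 CPM in PBS retinas. Both the highest library and the 2 lowest ones were from sIVs retinas, and without replicate 4 the log2 fold change was -0.64. Its shared sequence is described with the pseudogenes.

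Tissue-restricted paralogs were at or near 0. Rpl10l, known from testis, had 0 counts in all 8 libraries. Rpl39l, also known from testis, had at most 0.143 CPM in sIVs and 0.060 CPM in PBS retinas. Rpl3l, known from striated muscle, had 0 to 0.358 CPM in sIVs and 0.060 to 0.227 CPM in PBS retinas. These 3 were the members that did not pass the count filter. Their widely expressed counterparts averaged, in sIVs and PBS retinas, 186 ± 62.5 and 166 ± 33.0 CPM (Rpl10), 76.1 ± 43.3 and 57.2 ± 12.4 CPM (Rpl39), and 298 ± 113 and 238 ± 17.5 CPM (Rpl3, SD, n = 4 each). Rps27l, a paralog of Rps27 that p53 induces, averaged 14.6 ± 6.42 CPM in sIVs and 10.5 ± 2.55 CPM in PBS retinas. Of the paralogs outside the set, Rpl22l1 averaged 29.1 ± 16.2 and 21.6 ± 2.34 CPM, Rpl7l1 57.5 ± 12.1 and 52.1 ± 3.18 CPM, and Rps4l 31.9 ± 13.2 and 26.1 ± 4.25 CPM in sIVs and PBS retinas (SD, n = 4 each). Rpl36al, the relative of Rpl36a, had at most 0.589 CPM in sIVs and 0.481 CPM in PBS retinas. None of these pairs had a member past the test.

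Beyond the common pattern of the libraries, members differed in how closely they followed it. The SD over libraries of log2 CPM had a median of 0.491, and of 0.143 once the family median of each library was taken off. Rpl14 and Rps20 followed the family most closely, with an SD of 0.04 each. Rpl26 (0.63), Rpl29 (0.62), Rps27a (0.58), Rpl30 (0.57), Rps28 (0.55) and Rps27 (0.50) departed most. These genes were picked here for those values, after they were seen. Of them, Rpl26 and Rpl29 had only 116 and 136 counts over the 8 libraries, so their SDs carry more counting noise.

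Counts of several members were smaller than those of genes that share part of their sequence. Of the 78 tested genes, 68 had at least 1 stretch of 150 nt, the read length, in common with a transcript of a gene outside the set. In 11 the genes sharing such a stretch together held more counts than the member. Those 11 made up 9 of the 10 members under 10 FPKM (Rpl30, Rps2, Rps18, Rpl35a, Rps10, Rpl24, Rpl29, Rpl21 and Rpl26, with Rpl13a the tenth) and 2 of the other 68 (Rpl17 and Rplp0). The share of a transcript's 150 nt stretches found elsewhere was itself only weakly related to FPKM, with a Spearman correlation of -0.14 over the 78 genes. All 287 pseudogene rows named after members held 103087 counts, against 1361069 in the members, or 7.04% of both together. Copies under other names are not in that share, among them Gm15772 with 21466 counts and Gm8730 with 15855.

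Rpl26, a large subunit protein near the exit tunnel (mm10 chr11:68901583-68906989, plus strand), was the clearest case. It had 116 counts in all, and the processed pseudogene Gm15772 on chromosome 5 had 21466. Of the stretches of the Rpl26 transcript, 8.75% at 150 nt and 71.3% at 50 nt were found in other genes. Rpl26 had 0.573, 1.28, 1.44 and 0.619 CPM in sIVs and 0.756, 0.521, 0.941 and 1.56 CPM in PBS retinas. Gm15772 had 161, 135, 350 and 176 CPM in sIVs and 140, 154, 153 and 160 CPM in PBS retinas. The pseudogene showed the library pattern of the family and Rpl26 did not. The SD left after taking off the family median was 0.63 for Rpl26 and 0.07 for the sum of both. Gm15772 had 185 times the mean CPM of Rpl26, so the SD of the sum is in effect that of the pseudogene. It does not show whether reads were split between the 2 genes.

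Other members also shared sequence with a gene of many counts. Rps2, a small subunit protein at the mRNA entry, had 1056 counts and Rps2-ps10 had 16901, with 49.8% of its 150 nt stretches shared. For Rpl30, a large subunit protein, and Gm12191 the counts were 2332 and 8813, and the SD was 0.57 for the member and 0.16 for the sum, with 24.5% of stretches shared. For Rps10 and Rps10-ps2 the counts were 700 and 5635, and the SD was 0.41 and 0.10, with 88.0% shared. The partner had 3.76 times the mean CPM of Rpl30 and 7.97 times that of Rps10, so these sums mostly follow the partner. For Rpl21 the protein-coding row BC004004 held 7306 counts against 358 in the member, with 24.8% shared. For Rplp0 and Gm8730 the SD hardly moved, at 0.27 for the member and 0.26 for the sum, with 7.36% shared. How reads with several matches were counted is not stated in the labels, so the levels of these members are uncertain. For Rpl24 and Gm9385 the SD was 0.47 for the member and 0.20 for the sum, with 72.5% shared. Gm9385 held 339 counts beside 279 in Rpl24, with a log2 fold change of 0.67 against -0.16 for Rpl24. Unlike in the other pairs, the sum was low as well. It was 4.30, 3.69, 10.5 and 4.06 CPM in sIVs and 4.38, 5.15, 4.37 and 4.51 CPM in PBS retinas. Gm28037, a noncoding row that overlaps Rpl24 on the same strand, had 0 counts in all libraries.

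Rps27 shared 98.0% of its 150 nt stretches with other genes, among them Rps27rt, a protein-coding retrocopy on chromosome 9. Rps27rt had 69.8, 12.7, 19.3 and 33.8 CPM in sIVs and 42.5, 23.4, 59.7 and 66.3 CPM in PBS retinas. It was low where Rps27 was high relative to the family, as in sIVs replicates 3 and 4 and PBS replicate 3. Their sum was 115, 66.8, 227 and 106 CPM in sIVs and 70.7, 94.8, 98.2 and 107 CPM in PBS retinas. Its SD after the family median was 0.19, against 0.50 for Rps27 alone. Rps27 and Rps27rt had fitted log2 fold changes of opposite sign, 1.08 and -0.50, neither past the test in edgeR (adjusted p = 0.81 for both).

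**Figure D4:**
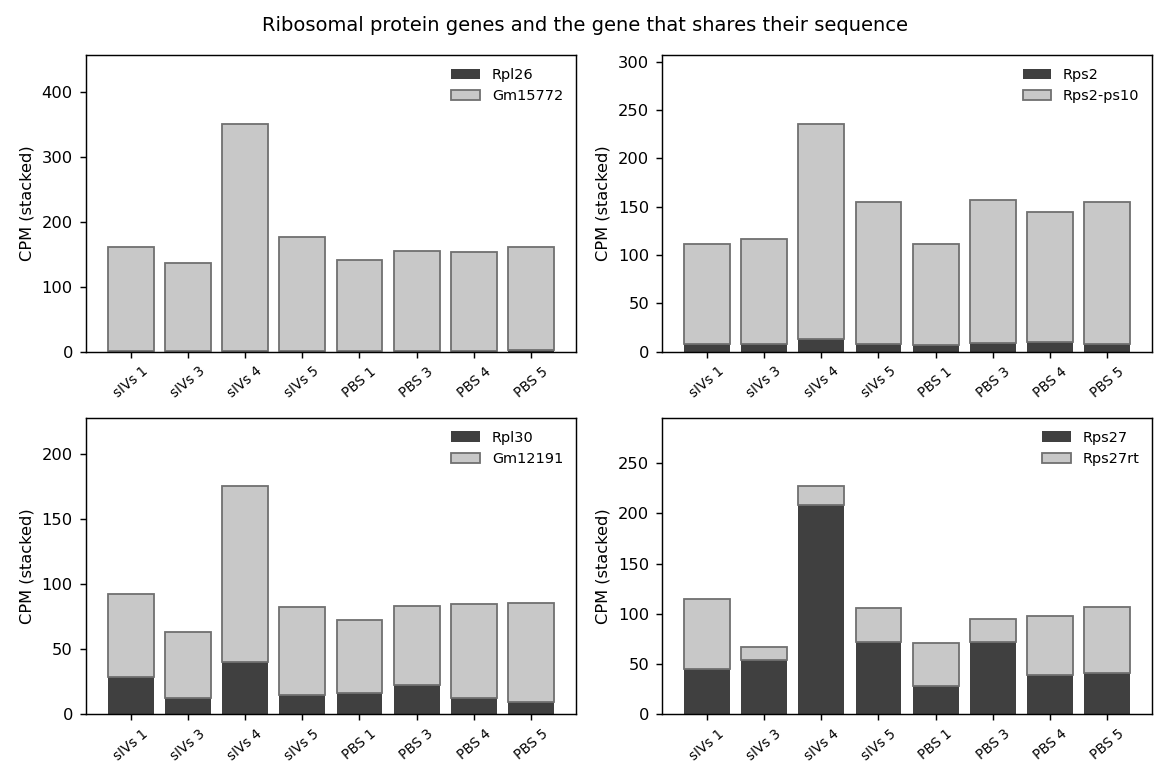
CPM of 4 ribosomal protein genes (dark) stacked with the gene outside the set that shares their sequence and holds most counts (light), by library, sIVs left of PBS. Rpl26 is barely visible beneath Gm15772, Rps2 and Rpl30 are the smaller part of their sums, and for Rps27 and Rps27rt the split changes from library to library while the sum is highest in sIVs replicate 4, at 227 CPM.

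The start regions of the members were read from the RefSeq promoter table (GRCm38.p6), which matched 61 of 81 members by symbol, in 73 windows. Any link between these sequences and the levels in the libraries was not tested. The sense strand from 5 bases before to 15 bases after the listed start was searched for CTTTC and CTTTT as well as CTTCC and CTTCT, pyrimidine stretches of the kind that open these mRNAs. They occurred in 28 of 73 member windows (38.4%) and in 10.2% of all 32851 windows of the table. The longest run of C and T near the start had a median of 6 bases in members and 4 in all windows. The ETS-type motif CCGGAAG, searched on both strands of the whole window of 250 bases before to 50 after the start, occurred in 26 of 73 (35.6%) and in 8.86% of all windows. CTTCC is also part of its reverse complement. The sequences below show 6 members with such a stretch at the start. Rps15 and Rpl4 are shown too, in which no motif was found within the bases searched around the RefSeq start. Each sequence covers 40 bases before to 20 after that start, written 5′ to 3′ on the gene's strand. The longest C and T run near the start is in capitals.
Fau, chr19:6057907-6057966, plus strand: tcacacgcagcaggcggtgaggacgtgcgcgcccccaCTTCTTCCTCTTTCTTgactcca
Rpl15, chr14:18270967-18271026, minus strand: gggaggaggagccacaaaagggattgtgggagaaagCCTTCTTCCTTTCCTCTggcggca
Rpl35, chr2:39005112-39005171, minus strand: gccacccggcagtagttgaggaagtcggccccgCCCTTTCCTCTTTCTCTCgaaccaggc
Rplp2, chr7:141447611-141447670, plus strand: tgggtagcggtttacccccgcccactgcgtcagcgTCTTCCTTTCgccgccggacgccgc
Rps6, chr4:86857348-86857407, minus strand: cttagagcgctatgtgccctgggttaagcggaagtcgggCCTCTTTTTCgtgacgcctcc
Rps27, chr3:90213629-90213688, minus strand: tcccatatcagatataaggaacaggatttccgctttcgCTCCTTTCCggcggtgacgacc
Rps15, chr10:80292391-80292450, plus strand: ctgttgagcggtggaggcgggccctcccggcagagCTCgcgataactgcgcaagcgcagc
Rpl4, chr9:64173347-64173406, plus strand: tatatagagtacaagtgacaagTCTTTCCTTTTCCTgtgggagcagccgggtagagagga
The runs of Fau and Rpl35 are 16 and 18 bases long and begin 3 and 7 bases before the listed start. In Rpl4 a run of 14 bases begins 18 bases before the listed start, outside the searched stretch. The gene start that the count table gives for Rpl4, 64173375, lies within that run. For Rps15 the count table's start, 80292453, lies past the printed bases and was not searched. Rps6, whose protein is the classical target of the S6 kinases, had 208, 180, 439 and 248 CPM in sIVs and 181, 212, 209 and 221 CPM in PBS retinas.

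Other genes of the translation machinery gave 0 adjusted calls in edgeR as well. For the 9 elongation factor genes the median log2 fold change was 0.15, with 7 positive, and -0.01 without sIVs replicate 4. Eef1e1 had 0.39 and Eif5a 0.37, both with an adjusted p of 0.81 in edgeR. The 29 initiation factor genes had a median of 0.14 (21 positive) and the 18 other mRNAs with such tracts, such as Eef1g and Eif3f, 0.19 (15 positive). Without sIVs replicate 4, 14 of 29 and 8 of 18 were positive. All 8 tract-bearing noncoding hosts of small nucleolar RNAs, Snhg8 and Epb41l4aos among them, were positive, with a median of 0.38, and -0.02 without sIVs replicate 4. The 31 ribosome biogenesis genes had a median of 0.06 (21 positive, and 14 without sIVs replicate 4). Polr1a, the largest subunit of RNA polymerase I, had 38.7, 38.8, 29.3 and 32.6 CPM in sIVs and 51.2, 48.5, 39.9 and 46.0 CPM in PBS retinas. All sIVs libraries lay below all PBS libraries, as they did for 0.929% of all tested genes. The log2 fold change was -0.41 (SE 0.13, unadjusted p = 0.0108) with an edgeR adjusted p of 0.81. Polr1a is named as the gene of smallest p among these 31, and 1.5% of all tested genes had an unadjusted edgeR p under 0.05. The 6 tested chaperones of ribosomal proteins were all positive, with a median of 0.20, and 4 of 6 were positive without sIVs replicate 4, with a median of 0.03. The 17 genes of the mTORC1 pathway had a median of -0.06, with 6 positive, and -0.03 without sIVs replicate 4, with 5 positive.

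Gene sets outside cytosolic translation showed the lead of sIVs replicate 4 too. The median log2 fold change was 0.31 for the 77 mitochondrial ribosomal protein genes (74 positive) and 0.44 for the 76 nuclear genes of the respiratory chain (73 positive). Without sIVs replicate 4 these medians were 0.06 and 0.05. In that library the median of log2(CPM + 0.5) minus the gene's mean was 0.77 and 1.07 for these sets, 0.48 for elongation factors, 0.45 for initiation factors and -0.14 for the mTORC1 genes. The value also followed the gene length listed in the count table. Over other tested coding genes it was 0.93 for the 282 genes under 1000 nt, 0.69 for the 1453 genes of 1000 to 2000 nt, 0.29 for the 4359 genes of 2000 to 4000 nt, -0.12 for the 5483 genes of 4000 to 8000 nt and -0.50 for the 2567 genes of 8000 nt and over. The other libraries had smaller trends with length, taken against a mean that includes sIVs replicate 4. From the shortest class to the longest, the median ran from -0.27 to 0.13 in PBS replicate 1. It ran from -0.23 to 0.11 in sIVs replicate 3, and upward as well in sIVs replicate 1 and the remaining PBS libraries. In sIVs replicate 5 it fell from 0.09 to -0.07. The members' median listed length was 1754.5 nt, against 4466.5 nt over all tested coding genes. The part of gene length, of the markers of other cell types and of sIVs replicate 4 itself in the positive fold changes of the ribosomal protein genes was not tested.

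**Figure D5:**
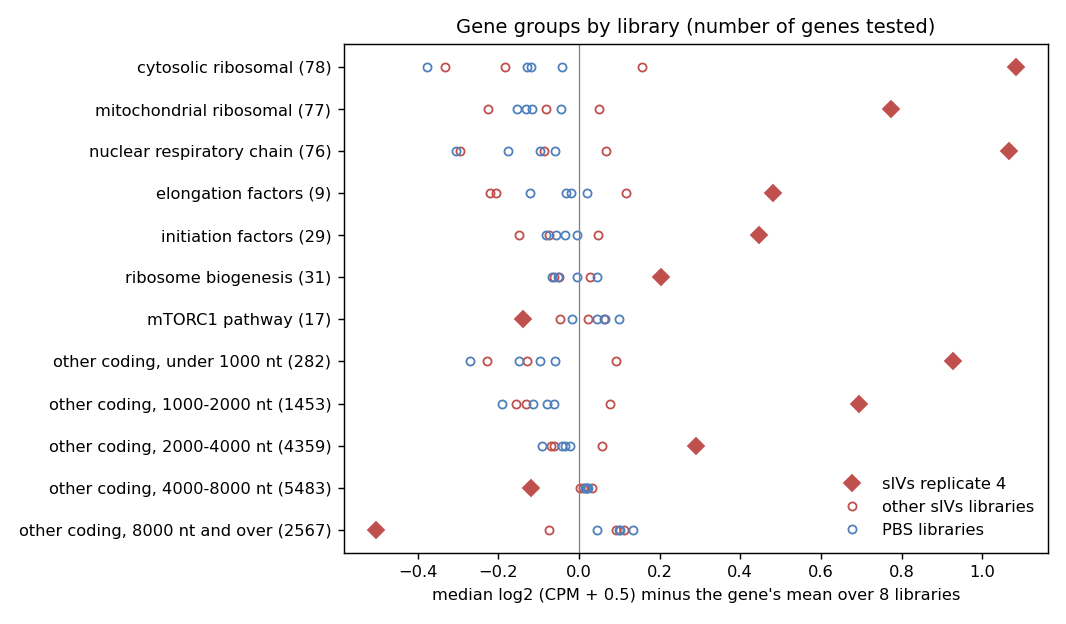
Median over each gene group of log2 (CPM + 0.5) minus the gene's mean over the 8 libraries, 1 symbol per library, with the number of tested genes in brackets; the lower 5 groups are other coding genes by listed length. In sIVs replicate 4 (filled diamonds) the median runs from 0.93 under 1000 nt to -0.50 at 8000 nt and over. The other sIVs (open red) and PBS libraries (open blue) show smaller trends, such as -0.27 to 0.13 in PBS replicate 1. They stay close to 0 in the 4000 to 8000 nt group.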

How the data were processed

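RNA sequencing measured 8 mouse retina libraries, 4 sIVs and 4 PBS. Per the labels' protocols the RNA was poly(A)-selected, marked for strand and read as 150 bp pairs. The authors deposited raw counts per gene and FPKM, with mm10 named as the build in the submitters' processing notes. The FPKM are counts per listed gene length and a library size that differed from the library total by a constant factor per library. Which aligner and counter were used, and how strand and multiply matching reads were treated, is not given in the sources used here.

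Sample titles gave the groups and replicate numbers. Genes were kept by filterByExpr, and counts were scaled by TMM. The main test was the two-sided quasi-likelihood test in edgeR 4.0.16 under R 4.3.3, with no term other than group and Benjamini-Hochberg adjustment over all 17004 tested genes at 0.05. Standard errors are the absolute log2 fold change over the square root of F. CPM use the TMM-scaled library size. Alternatives used DESeq2 1.42.0, limma 3.58.1 (voom with sample quality weights, and log2 of FPKM plus 1 or 0.1), other scaling and filters, the omission of single libraries and a block for replicate number. Shared stretches of 150 nt were sought between transcripts of GENCODE M21, where 53585 of the 54495 genes in both had the start and end that the count table lists.

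The members, the other gene lists and the tests were chosen with earlier results of these data known. Genes were named by a rule: the 10 of highest and the 5 tested of lowest FPKM, the 6 of smallest p, the 3 highest and 3 lowest fold changes, the P-stalk, fusion and paralog genes, and the 2 of smallest p in other lists, of which 1 gene is not reported here. Depth was 13803958 to 16622259 counts per library.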

Additional observations from a re-analysis of the deposited data

Results flagged for a closer look

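Of 68 groups of 4 values examined, 6 had a highest or lowest library set apart from the next. The gap was too large a part of the group's range (Dixon's test at the 95% level). Chance gives about 1 in 20 of independent groups. These groups are not independent, since the genes share the same libraries and 76 of 78 tested members were highest in sIVs replicate 4. In sIVs retinas, replicate 4 stood above the others for Fau (487 CPM, next 196, lowest 145), Rps15 (493 CPM, next 213, lowest 163), Rps27 (208 CPM, next 72.0, lowest 44.9) and Rps2 (13.2 CPM, next 8.18, lowest 7.31). In PBS retinas, replicate 1 stood below the others for Fau (135 CPM, next 159, highest 164) and Rpl36a (22.1 CPM, next 40.4, highest 42.4).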

How the results depend on the processing

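No tested gene, and so no ribosomal protein gene, had an adjusted p under 0.05 in any of the alternatives run, by edgeR, DESeq2 (322 unadjusted over all genes) or limma-voom with quality weights (455 unadjusted). The median log2 fold change of the ribosomal protein genes was 0.43 and lay between 0.31 and 0.44 under DESeq2, other scaling factors, no filter on low counts (8 of 80 members with an unadjusted p under 0.05, beside 2.53% of all genes) and limma on FPKM. It was -0.0375 with sample quality weights. Leaving out 1 library in turn gave 0.04 to 0.62, the lowest without sIVs replicate 4. The log2 ratio of their share of counts, 0.42, ranged from 0.04 to 0.57 in the same way, and was 0.30 as a share of coding FPKM.

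With quality weights 17 of 32 named members turned negative: Rpl10 (-0.18), Rpl19 (-0.0673), Rpl21 (-0.0849), Rpl3 (-0.0175), Rpl36a (-0.23), Rpl39 (-0.25), Rpl4 (-0.0041), Rpl41 (-0.26), Rpl7 (-0.0299), Rpl8 (-0.00051), Rplp0 (-0.17), Rplp1 (-0.0573), Rplp2 (-0.0157), Rps13 (-0.0820), Rps2 (-0.15), Rps23 (-0.0159) and Rps4x (-0.11). Over the libraries left out in turn, the sign changed for 9 of the 32 named members: Rpl10 (-0.0742 to 0.28), Rpl24 (-0.64 to 0.0354), Rpl26 (-0.20 to 0.41), Rpl36a (-0.0326 to 0.53), Rpl39 (-0.0460 to 0.63), Rpl41 (-0.0946 to 0.67), Rplp0 (-0.0291 to 0.60), Rps2 (-0.12 to 0.22) and Rps4x (-0.0081 to 0.55). The cause was not tested.

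Samples of the same replicate number deviated together with r = 0.60, 0.02, 0.23 and 0.51 for numbers 1, 3, 4 and 5. Samples of different numbers were not compared in this way, so these values cannot show whether the numbers pair the samples. The main test did not pair them. With the replicate block the median log2 fold change of the members was 0.33, and there were 0 adjusted calls and 588 unadjusted ones over all genes (3.46%), 2 of them members.

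The members under 10 FPKM had 116 (Rpl26) to 2332 (Rpl30) counts over the 8 libraries. The median standard error of a member, 0.30, limits what a single gene can show at the size of the median, 0.43.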
